A study of Mus musculus with 9 samples.

Results

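The vascular endothelium keeps blood fluid by displaying and secreting inhibitors of clotting and activators of clot breakdown. The genes described here are 8 such anticoagulant and fibrinolytic genes and their close partners, chosen by name as Thbd, Procr, Tfpi, Plat, Vwf, F8, Entpd1 and Anxa2. Of these, 7 were tested among the 9277 genes of the deposited table, and F8, the gene of coagulation factor VIII, was not analysed here. RNA had been sequenced from lung endothelial cells of Tie1-CR mice, whose Tie1 receptor resists proteolytic cleavage (n = 5 libraries), and of Tie1-WT mice, which carry the wild type receptor (n = 4 libraries). Tie1 is an endothelial receptor that forms complexes with Tek, the receptor of the angiopoietins, and proteases shed its outer part during inflammation. All 9 library names carry PBS, a buffer often used as a vehicle, and the labels do not say how it was given. The comparison thus addresses how transcripts differ between genotypes that share this condition. Age, batch and the method of isolating the cells are not stated in the labels. The labels also do not say how many mice stand behind the libraries, and the p-values here describe variation among libraries, which may be technical. The running numbers in the library names are all higher for Tie1-CR than for Tie1-WT. The labels do not say what these numbers record, so anything that follows them cannot be told apart from genotype.

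Thrombin is held in check on the vessel wall by thrombomodulin, which redirects it towards activating protein C, while tissue factor pathway inhibitor blocks the start of the cascade. Plasmin, made from plasminogen by tissue-type plasminogen activator, dissolves fibrin. Lung endothelium is a rich source of thrombomodulin. Endothelial cells can also store von Willebrand factor, which tethers platelets, in granules called Weibel-Palade bodies, and its level differs between kinds of endothelium. In bulk RNA such as this, fewer cells of a type and less RNA per cell cannot be told apart.

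None of the anticoagulant and fibrinolytic genes passed the test between Tie1-CR and Tie1-WT. In a limma fit of log2(CPM + 1) across all 9277 genes (CPM, the reads of a gene scaled to the total of its library), 0 of 7 rose and 0 fell at a Benjamini-Hochberg adjusted p below 0.05, where 1.28% of all genes rose and 2.77% fell (4.05% in either direction). The adjusted p values ran from 0.153 for Anxa2 to 0.845 for Entpd1. At an unadjusted limma p below 0.05 there were 2 of 7, Vwf and Anxa2, where 22.3% of all genes lay below that level. Of the 7 log2 differences (Tie1-CR minus Tie1-WT), 5 were above 0 and 2 below, with a median of 0.09 against -0.03 for all genes, of which 41.5% were above 0 and 58.5% below. The median of the 7 was 0.03 without Tie1-WT replicate 4 and 0.04 with quantile normalization, where that of all genes was 0.00. The 95% limma intervals of all 7 lay inside 1 log2, or 2-fold, in either direction. The widest bounds were -0.62 for Procr and 0.55 for Vwf. The data thus bound these differences on the log2 scale, but a p above the threshold does not show that the genotypes were alike.

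**Figure D1:**
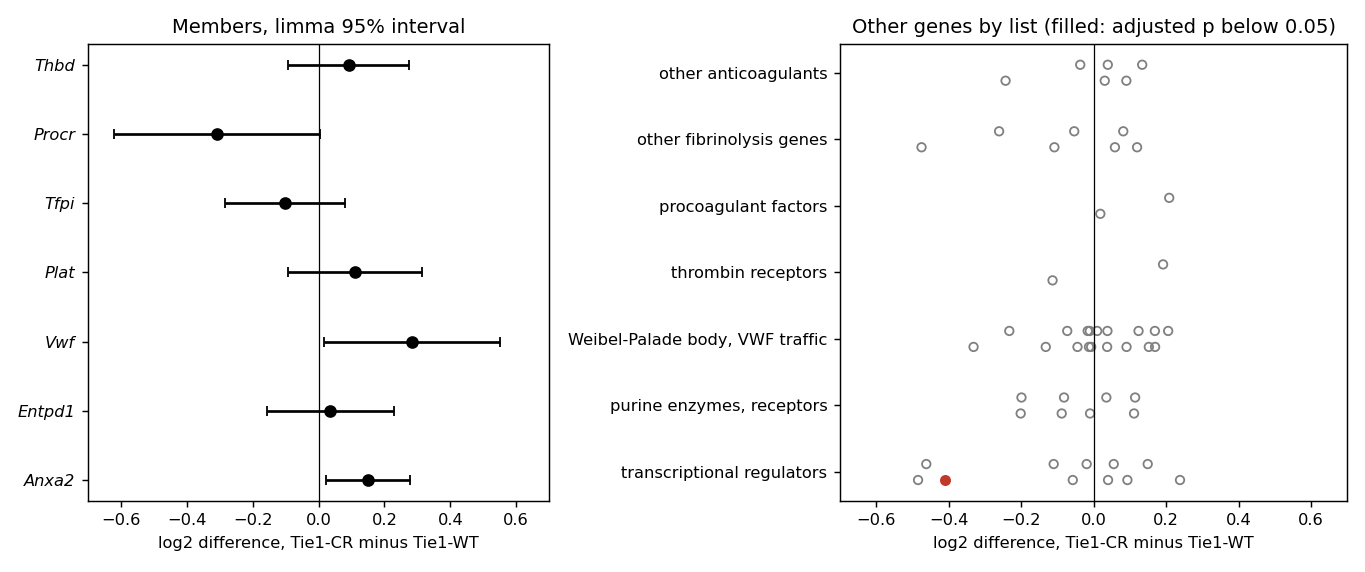
Left, log2 differences (Tie1-CR minus Tie1-WT, x axis) of the 7 genes with 95% limma intervals. Right, the log2 differences of 54 related genes in 7 lists, where the filled point is Erg, the only one of them past the adjusted threshold. The intervals of 5 of the 7 genes hold 0, and those of Vwf and Anxa2 lie above it before adjustment over all genes.

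The levels of these genes spanned a wide range. Divided by the length of their annotated exons, Thbd was the most abundant transcript, at 1213 ± 78.0 CPM per kb in Tie1-CR (SD, n = 5) and 1140 ± 108 in Tie1-WT (SD, n = 4). Vwf followed at 239.6 ± 40.7 CPM per kb in Tie1-CR and 195 ± 13.5 in Tie1-WT. Anxa2 came next, at 90.6 ± 6.16 CPM per kb in Tie1-CR and 81.6 ± 3.65 in Tie1-WT. Each of these 3 genes lay above the next in all 9 libraries. Entpd1, at 35.3 ± 4.00 CPM per kb in Tie1-CR and 34.4 ± 3.39 in Tie1-WT, and Plat, at 32.3 ± 2.75 in Tie1-CR and 30.0 ± 4.23 in Tie1-WT, did not differ beyond their spread. Entpd1 exceeded Plat in 7 of the 9 libraries. Tfpi had 11.4 ± 0.627 CPM per kb in Tie1-CR and 12.3 ± 1.64 in Tie1-WT, and Procr was the least abundant, at 3.11 ± 0.287 in Tie1-CR and 4.04 ± 1.07 in Tie1-WT. These lengths are unions of annotated exons, since the gene models used for counting are not given.

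**Figure D2:**
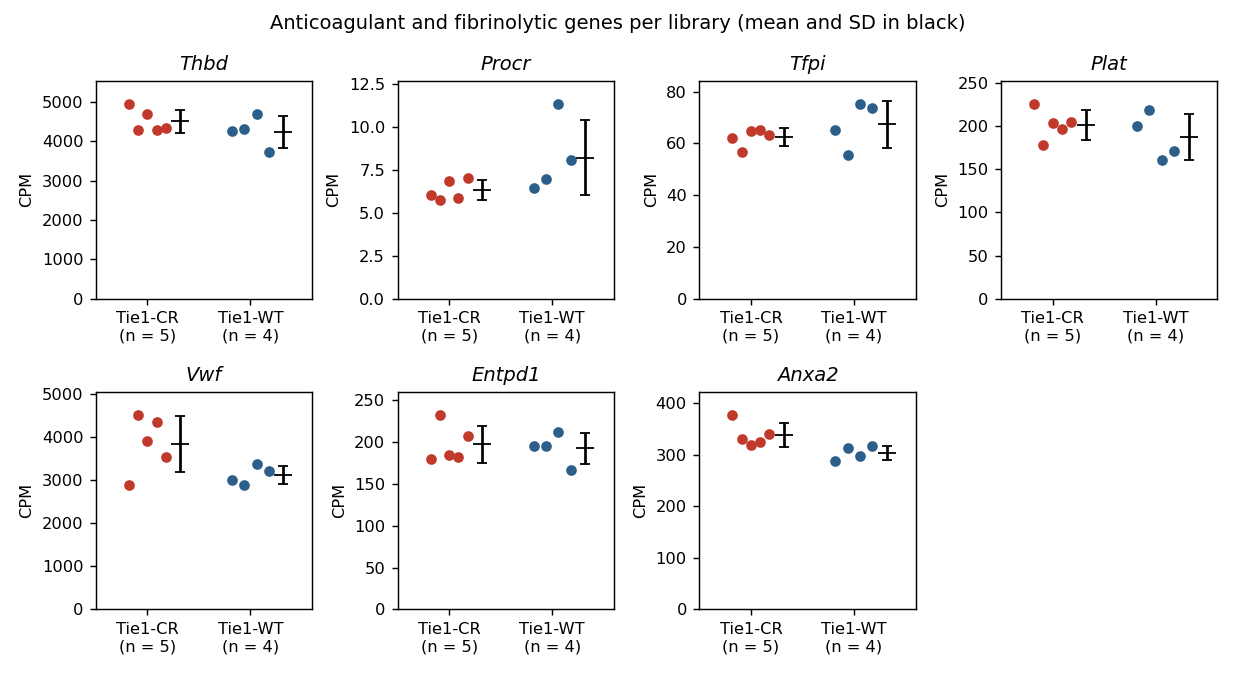
CPM of the 7 genes in each library (y axis, linear, from 0), with 5 Tie1-CR libraries left of 4 Tie1-WT libraries and the mean and SD in black. Anxa2 is the only gene whose genotypes do not overlap, and the Tie1-CR libraries of Vwf are spread from 2896 to 4521 CPM.

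The thrombin and protein C branch was represented by Thbd and Procr. Thbd (ENSMUSG00000074743.4, GRCm38 chr2:148404466-148408188, a gene of 1 exon on the minus strand) encodes thrombomodulin. It measured 4943, 4301, 4694, 4303 and 4338 CPM in the Tie1-CR libraries, against 4254, 4306, 4701 and 3721 CPM in the Tie1-WT libraries. The genotypes overlapped, with 1 Tie1-CR library above all Tie1-WT libraries, and Tie1-WT replicate 4 was the lowest of the 9. On the log2 scale the difference was 0.09 (SE 0.08, 95% interval -0.09 to 0.27, limma adjusted p = 0.547), which corresponds to a fold between 0.938 and 1.21. It was 0.03 without Tie1-WT replicate 4 and 0.14 without Tie1-WT replicate 3. Between 164325 and 268930 reads were counted for Thbd per library, so the interval reflects the spread between libraries and not counting error.

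Procr (ENSMUSG00000027611.12, chr2:155751117-155755471, plus strand) encodes the endothelial protein C receptor, which presents protein C to thrombin on thrombomodulin. It measured 6.07, 5.76, 6.86, 5.86 and 7.01 CPM in Tie1-CR, against 6.48, 6.95, 11.3 and 8.08 CPM in Tie1-WT. Below every Tie1-WT library lay 3 of the 5 Tie1-CR libraries, and Tie1-WT replicate 3 stood highest. The log2 difference was -0.31 (SE 0.14, 95% interval -0.62 to 0.01, limma adjusted p = 0.233). Without Tie1-WT replicate 3 it was -0.16 (limma adjusted p = 0.477), and with library weights -0.19. Only 220 to 549 reads were counted for Procr per library. The table lists genes that reach 10 CPM in some library, and Procr did so only in Tie1-WT replicate 3, so its presence in the table depends on the genotype where it was higher and its difference is given as a description.

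Tfpi (ENSMUSG00000027082.15, chr2:84432855-84476775, minus strand) encodes the Kunitz-type inhibitor of the tissue factor and factor VIIa complex and of factor Xa. Its levels were 62.0, 56.7, 64.7, 65.2 and 63.4 CPM in Tie1-CR, against 65.0, 55.7, 75.1 and 73.8 CPM in Tie1-WT. All 5 Tie1-CR libraries lay within the range of the Tie1-WT libraries, which held both the highest and the lowest value. On the log2 scale the difference was -0.10 (SE 0.08, 95% interval -0.28 to 0.08, limma adjusted p = 0.496). It was -0.05 without Tie1-WT replicate 3 and -0.19 without Tie1-WT replicate 2.

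The fibrinolytic side was represented by Plat and Anxa2. Plat (ENSMUSG00000031538.6, chr8:22757727-22782844, plus strand) encodes tissue-type plasminogen activator, which cleaves plasminogen to plasmin on fibrin. It measured 225, 178, 204, 197 and 205 CPM in Tie1-CR, against 200, 218, 161 and 171 CPM in Tie1-WT. The genotypes overlapped widely, with 1 Tie1-CR library above all Tie1-WT libraries. The log2 difference was 0.11 (SE 0.09, 95% interval -0.09 to 0.31, limma adjusted p = 0.503), and it was 0.04 without Tie1-WT replicate 3 and 0.19 without Tie1-WT replicate 2.

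Anxa2 (ENSMUSG00000032231.14, chr9:69453620-69491795, plus strand) encodes annexin A2, which with its partner S100A10 forms a surface receptor for plasminogen and tissue-type plasminogen activator. Its levels were 377, 330, 320, 324 and 340 CPM in Tie1-CR, against 289, 313, 297 and 318 CPM in Tie1-WT. All 5 Tie1-CR libraries lay above all 4 Tie1-WT libraries, though the closest pair differed by little, at 319.9 CPM in Tie1-CR replicate 3 and 318.0 CPM in Tie1-WT replicate 4. Genes with every Tie1-CR library above every Tie1-WT library made up 3.74% of the table. On the log2 scale the difference was 0.15 (SE 0.06, 95% interval 0.02 to 0.28, unadjusted p = 0.0245, limma adjusted p = 0.153), and the exact permutation p was 0.0159 (two-sided, unadjusted). Without Tie1-CR replicate 1, the library with the highest value, it was 0.11 (limma adjusted p = 0.193). An antisense gene, Gm16144, shares 98 exon bases with Anxa2 on the opposite strand. Whether strand was used in counting is not given, so reads from that stretch cannot be assigned to either gene.

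The promoters of Anxa2 and Procr are shown because these genes had the differences with the smallest p on either side of 0 among the genes with a RefSeq promoter window. The stretches below are the RefSeq GRCm38.p6 bases on the plus strand that precede both the RefSeq and the GENCODE start, chr9:69453433-69453619 for Anxa2 and chr2:155750967-155751116 for Procr. Capitals mark matches on either strand to the KLF box CCACCC or to the AP-1 motif TGANTCA.
Anxa2: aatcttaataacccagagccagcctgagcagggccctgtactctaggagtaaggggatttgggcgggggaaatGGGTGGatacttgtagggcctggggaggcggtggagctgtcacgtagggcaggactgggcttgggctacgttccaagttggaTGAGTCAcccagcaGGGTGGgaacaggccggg
Procr: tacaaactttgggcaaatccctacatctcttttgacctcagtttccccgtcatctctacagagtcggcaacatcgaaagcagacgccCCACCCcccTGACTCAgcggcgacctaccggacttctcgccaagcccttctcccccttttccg

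Both windows hold a KLF box and an AP-1 motif, at positions -163 and -154 from the RefSeq start in Procr, and at -177 and -81 for the KLF box and -95 for AP-1 in Anxa2. A further KLF box of Anxa2 lies at -7, outside the stretch shown. Of 32851 promoter windows of the same length, 31.5% hold the KLF box, 7.81% the AP-1 motif and 2.06% both. The windows were also searched on both strands for an EGR core GTGGGCG (7.97% of all windows), an ETS core CCGGAA (14.9%), a FOX core GTAAACA (3.65%) and a CRE core TGACGTC (3.21%). None of these 6 motifs was found in the 2 windows each of Tfpi and Entpd1 or in that of F8, which says only that these letters are not in those windows. Thbd, Plat and Vwf had no promoter window among those used, so they were not searched. A match is a description of the sequence and does not show binding.

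Vwf (ENSMUSG00000001930.17, chr6:125546774-125686679, plus strand) encodes von Willebrand factor, which tethers platelets at sites of injury and carries factor VIII in plasma. It measured 2896, 4521, 3922, 4357 and 3551 CPM in Tie1-CR, against 3017, 2898, 3387 and 3217 CPM in Tie1-WT. Above every Tie1-WT library lay 4 of the 5 Tie1-CR libraries, while Tie1-CR replicate 1 was the lowest of all 9. The log2 difference was 0.28 (SE 0.12, 95% interval 0.02 to 0.55, unadjusted p = 0.0394, limma adjusted p = 0.198), with an exact permutation p of 0.0873. Without Tie1-CR replicate 1 it was 0.38 (limma adjusted p = 0.053), the smallest adjusted p of any of the 7 genes under any alternative, and with quantile normalization it was 0.17 (limma adjusted p = 0.477). The coefficient of variation of Vwf was 17.0% in Tie1-CR and 6.91% in Tie1-WT.

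Vwf is also made by megakaryocytes and differs between kinds of endothelium, so the markers of both were measured. Of 15 platelet and megakaryocyte markers, 8 were measured and 0 passed, all 8 with differences above 0, though Pf4 reached 10 CPM in Tie1-CR only. Their summed level was 176 to 246 CPM in Tie1-CR, against 99.8 to 256 CPM in Tie1-WT. Tie1-WT held both the lowest sum of all 9 libraries, in replicate 3, and the highest, in replicate 1. The defining markers Pf4, Ppbp and Itga2b were all present in both genotypes, with Ppbp at 23.4 to 31.9 CPM in Tie1-CR, against 7.58 to 32.9 CPM in Tie1-WT. With the platelet markers as a covariate, an alternative chosen after seeing the data, the log2 difference of Vwf was 0.28 (limma adjusted p = 0.245). Arterial markers summed to 3776 to 4377 CPM in Tie1-CR, against 3021 to 3513 CPM in Tie1-WT, without overlap. Of the 9 measured, 8 had differences above 0 (median 0.245 log2) and 1 rose, Hey1, a Notch target, at 495 ± 72.9 CPM in Tie1-CR and 342 ± 50.5 CPM in Tie1-WT (limma adjusted p = 0.0353). The 9 measured venous markers other than Vwf summed to 1823 to 2089 CPM in Tie1-CR, against 1568 to 1729 CPM in Tie1-WT, without overlap. Most of that sum came from Ephb4, a venous ephrin receptor that rose, at 999.7 ± 32.1 CPM in Tie1-CR and 792 ± 37.0 CPM in Tie1-WT (limma adjusted p = 0.00787), and from the noradrenaline transporter gene Slc6a2, at 449 ± 113.5 CPM in Tie1-CR and 333 ± 26.1 CPM in Tie1-WT (limma adjusted p = 0.125). Over the whole venous list of 10, Vwf included, 4 differences were above 0 and 6 below, with a median of -0.06 log2. The part of large-vessel transcripts in the Vwf values was not tested.

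Entpd1 (ENSMUSG00000048120.16, chr19:40612366-40741602, plus strand) encodes an ectonucleotidase that degrades extracellular ATP and ADP and so limits platelet activation. Its levels were 179, 232, 185, 182 and 207 CPM in Tie1-CR, against 195, 195, 212 and 166 CPM in Tie1-WT. The genotypes overlapped almost fully, with the highest library in Tie1-CR and the lowest in Tie1-WT. On the log2 scale the difference was 0.04 (SE 0.09, 95% interval -0.16 to 0.23, limma adjusted p = 0.845), the smallest of the 7, and its sign turned without Tie1-CR replicate 2 (-0.02) or Tie1-WT replicate 4 (-0.03).

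The spread between libraries of one genotype was large for several of these genes. The SD of log2(CPM + 1) within genotypes was 0.23 for Procr, larger than in 63.7% of the genes nearest to it in mean CPM. It was 0.21 for Vwf, 0.16 for Plat, 0.15 for Entpd1 and 0.14 for Tfpi. These were larger than in 87.1%, 85.8%, 83.8% and 85.4% of the genes nearest to each in mean CPM. Anxa2, at 0.08, and Thbd, at 0.11, were near the middle of such genes (38.5% and 51.8% had a smaller SD). The libraries did not deviate the same way for all genes. Tie1-CR replicate 1 had the highest Thbd, Plat and Anxa2 of all 9 libraries and the lowest Vwf. Tie1-WT replicate 3 had the highest Procr and Tfpi and the lowest Plat.

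**Figure D3:**
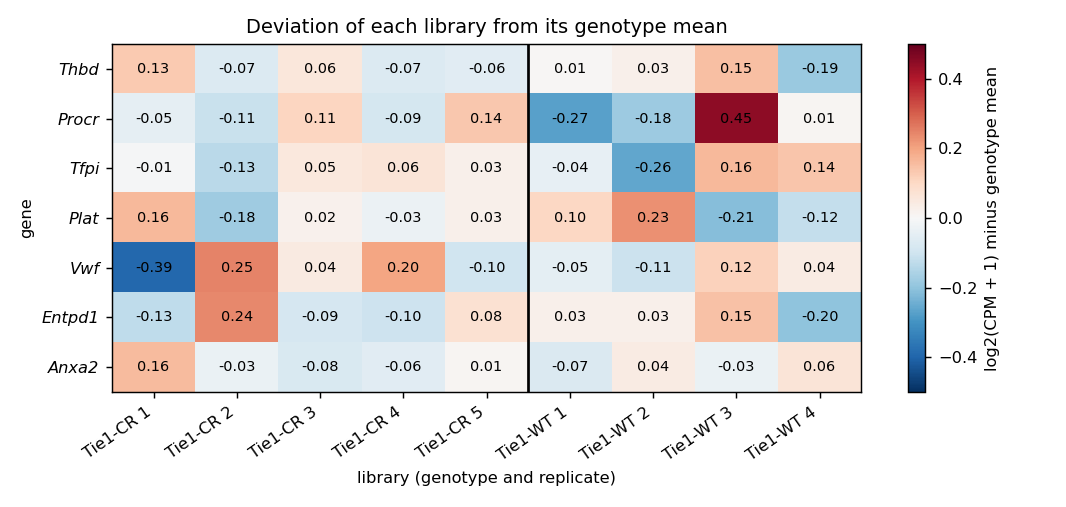
Deviation of log2(CPM + 1) from the genotype mean for the 7 genes (rows) in the 5 Tie1-CR and 4 Tie1-WT libraries (columns), with each value printed in its cell. Vwf in Tie1-CR replicate 1 (-0.39) and Procr in Tie1-WT replicate 3 (0.45) have the largest deviations.

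For each gene, the genes with the most similar deviations from the genotype means were found over the 9 libraries, as a description. Among the closest were Clic4 (Pearson r = 0.94) and BC017643 (0.95) for Thbd, Kat2a (0.98) and Prmt7 (0.97) for Procr, and Pofut1 (0.96) and F2r (0.95) for Tfpi. Others were Sf1 (0.90) for Plat, Camsap3 and Zfp704 (both 0.99) for Vwf, Pan3 (0.96) and Odf2 (0.94) for Entpd1, and Txndc12 (0.98) and Yaf2 (0.97) for Anxa2. With 9 libraries and 9277 genes, values of this size are the top of a long list, and the libraries share depth and preparation.

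Other genes of these pathways came from 7 lists of 102 genes, of which 54 were measured. Over these 54 genes, 0 rose and 1 fell (limma), where 1.28% of all genes rose and 2.77% fell. Of their differences 27 were above 0 and 27 below, and the median was 0.00 log2. At an unadjusted limma p below 0.05 there were 10 of 54, where 22.3% of all genes lay below that level. In each list the 2 genes with the highest mean CPM, a rule of choice that takes no account of length, and any gene past the threshold are named, and Gas6, S100a10, Selp, Angpt2, Rab27a, Klf4 and Mapk7 were added after their values were seen.

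Among 12 other anticoagulant genes, 6 were measured and 0 passed (median 0.03 log2). The highest were Hs3st1, an enzyme that makes the antithrombin-binding form of heparan sulfate, at 304 ± 38.2 CPM in Tie1-CR and 287 ± 50.4 CPM in Tie1-WT, and Pros1, the gene of protein S, a cofactor of activated protein C, at 271 ± 9.56 CPM in Tie1-CR and 264 ± 10.2 CPM in Tie1-WT. Gas6, a relative of protein S that activates TAM receptors, measured 71.1 to 77.6 CPM in Tie1-CR, against 80.9 to 103.7 CPM in Tie1-WT, a log2 difference of -0.24 (SE 0.07, limma adjusted p = 0.0644). Its genotypes did not overlap, as held for 6.74% of all genes in that direction.

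Among 12 other fibrinolysis genes, 7 were measured and 0 passed (median -0.05 log2). The highest were Ahnak, a large scaffold protein that binds the annexin A2 complex, at 254 ± 27.2 CPM in Tie1-CR and 262 ± 9.15 CPM in Tie1-WT, and Plaur, the urokinase receptor, at 171 ± 41.2 CPM in Tie1-CR and 201 ± 27.6 CPM in Tie1-WT. S100a10, the partner of annexin A2, measured 75.3, 63.2, 59.9, 55.5 and 65.8 CPM in Tie1-CR, against 66.7, 66.3, 71.8 and 69.9 CPM in Tie1-WT (log2 difference -0.11, limma adjusted p = 0.425). Below the Tie1-WT range lay 4 of the 5 Tie1-CR libraries, but Tie1-CR replicate 1 was the highest of all 9.

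Of 15 procoagulant genes 2 were measured and 0 passed. Ano6, a scramblase that exposes phosphatidylserine, had 406 ± 36.5 CPM in Tie1-CR and 399.8 ± 5.41 CPM in Tie1-WT, and F5, the gene of factor V, 9.17 ± 3.37 CPM in Tie1-CR and 8.28 ± 3.99 CPM in Tie1-WT. Of 6 genes listed as thrombin and protease-activated receptors and related receptors, 2 were measured and 0 passed. They were F2r, the main thrombin receptor, at 81.5 ± 7.79 CPM in Tie1-CR and 89.0 ± 16.5 CPM in Tie1-WT, and the sphingosine-1-phosphate receptor gene S1pr1, at 2019 ± 303.5 CPM in Tie1-CR and 1753 ± 98.5 CPM in Tie1-WT. Of 22 purine ectoenzymes and receptors 8 were measured and 0 passed (median -0.05 log2). The adenosine transporter Slc29a1 had 205 ± 13.5 CPM in Tie1-CR and 218 ± 25.5 CPM in Tie1-WT, and the ATP-gated channel P2rx4 149 ± 8.49 CPM in Tie1-CR and 138 ± 5.14 CPM in Tie1-WT.

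The 24 genes of Weibel-Palade bodies and von Willebrand factor traffic gave 18 measured, of which 0 passed, with 9 differences above 0 and 9 below (median 0.00 log2). The highest were Igfbp7, a granule cargo, at 1296 ± 191 CPM in Tie1-CR and 1222 ± 224 CPM in Tie1-WT, and Slc44a2, a choline transporter that can bind von Willebrand factor, at 404 ± 22.7 CPM in Tie1-CR and 363.5 ± 11.7 CPM in Tie1-WT. The cargo genes Selp and Angpt2 lay on the opposite side of 0 from Vwf, while Igfbp7 lay on the same side (log2 difference 0.09, limma adjusted p = 0.719). Selp, the gene of P-selectin, measured 21.9, 24.1, 30.6, 25.2 and 21.4 CPM in Tie1-CR, against 23.4, 30.6, 41.3 and 31.2 CPM in Tie1-WT (log2 difference -0.33, limma adjusted p = 0.201). Angpt2, the gene of the Tek ligand angiopoietin-2, measured 69.55 ± 5.29 CPM in Tie1-CR and 82.1 ± 9.06 CPM in Tie1-WT (log2 difference -0.23, limma adjusted p = 0.111). Rab27a, a granule GTPase, had 67.7 ± 4.37 CPM in Tie1-CR and 60.1 ± 3.23 CPM in Tie1-WT (log2 difference 0.17, limma adjusted p = 0.118).

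Among 11 transcriptional regulators and kinases linked to these genes, all 11 were measured, 1 fell and 0 rose. Erg, an ETS factor of endothelial identity that in human endothelial cells activates VWF, measured 35.5, 40.1, 36.3, 37.6 and 38.0 CPM in Tie1-CR, against 54.6, 50.9, 45.8 and 49.8 CPM in Tie1-WT. Its genotypes did not overlap, and the log2 difference was -0.41 (SE 0.06, limma adjusted p = 0.00516). Klf2, a flow-induced factor that activates Thbd, had 2445 ± 983 CPM in Tie1-CR and 3518 ± 1595 CPM in Tie1-WT, with a log2 difference of -0.48 (SE 0.35, limma adjusted p = 0.433). Its relative Klf4 had 497 ± 172 CPM in Tie1-CR and 689 ± 256 CPM in Tie1-WT (log2 difference -0.46, limma adjusted p = 0.392). The genotypes overlapped for both KLF genes, whose libraries were widely spread. Gata2, an endothelial zinc finger factor, had 1279 ± 99.25 CPM in Tie1-CR and 1152 ± 70.2 CPM in Tie1-WT (log2 difference 0.15, limma adjusted p = 0.238). Mapk7, a flow-responsive kinase upstream of the KLF factors, had 99.8 ± 9.31 CPM in Tie1-CR and 84.3 ± 4.70 CPM in Tie1-WT (log2 difference 0.24, limma adjusted p = 0.0764), without overlap.

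Since several genes and their partners had differences of opposite sign, 4 ratios were formed within each library, where library scaling cancels, and 3 of them are reported. They were chosen after the values were seen, so their p values are descriptions of a selected contrast. Anxa2 over S100a10 was 5.01, 5.21, 5.34, 5.85 and 5.17 in Tie1-CR, against 4.33, 4.72, 4.14 and 4.55 in Tie1-WT. All 5 Tie1-CR libraries lay above all 4 Tie1-WT libraries (log2 difference 0.26, 1.198-fold, exact permutation p = 0.0079, the smallest that 5 against 4 libraries allow, and 0.0318 adjusted over all 4 ratios). Of the other genes of the table, 4.83% had a ratio to S100a10 that separated the genotypes in this way.

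Vwf over Selp was 132, 188, 128, 173 and 166 in Tie1-CR, against 129, 94.8, 82.1 and 103 in Tie1-WT (log2 difference 0.63, 1.54-fold, exact permutation p = 0.0238, adjusted 0.0318). The genotypes overlapped through Tie1-CR replicate 3 at 128.2 and Tie1-WT replicate 1 at 129.2, and 1.25% of the other genes had a ratio to Selp that separated them. Thbd over F2r averaged 55.8 ± 6.03 in Tie1-CR and 48.9 ± 9.76 in Tie1-WT (exact permutation p = 0.206, adjusted 0.206), with wide overlap, where 0.809% of the other genes had a ratio to F2r that separated the genotypes.

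**Figure D4:**
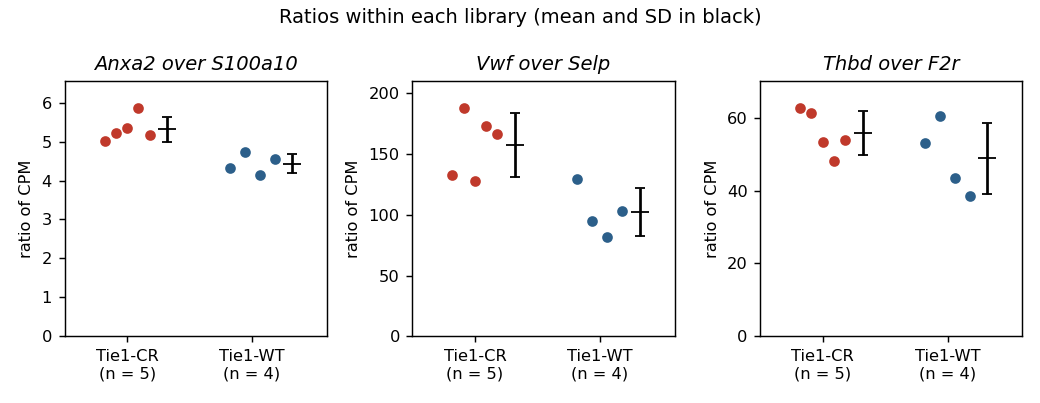
Ratios of CPM within each library (y axis, linear, from 0) for 3 gene pairs, with 5 Tie1-CR libraries left of 4 Tie1-WT libraries and the mean and SD in black. Anxa2 over S100a10 separates the genotypes, while Vwf over Selp overlaps at 128.2 in Tie1-CR and 129.2 in Tie1-WT.

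The purity and depth of the libraries bear on all of these levels. The 9 libraries held 38208696 to 54408116 counted reads, with no difference between genotypes past the threshold (exact permutation p = 0.46). All 16 pan-endothelial markers were measured, and their sum was 23600 to 24290 CPM in Tie1-CR, against 21090 to 23320 CPM in Tie1-WT, without overlap (log2 difference 0.11). Of the 16 differences 14 were above 0. Erg fell, and Sox18, an endothelial transcription factor, rose, at 1127 ± 92.6 CPM in Tie1-CR and 828 ± 151 CPM in Tie1-WT (limma adjusted p = 0.0395). The 8 aerocyte markers summed to 7513 to 8565 CPM in Tie1-CR, against 7014 to 9212 CPM in Tie1-WT, and the 10 general capillary markers to 18030 to 19910 CPM in Tie1-CR, against 16590 to 18950 CPM in Tie1-WT, with overlap in both sums. None of the aerocyte markers passed the threshold, and 1 general capillary marker rose, the neurotrophin receptor gene Ntrk2, at 66.7 to 110.3 CPM in Tie1-CR, against 30.0 to 40.4 CPM in Tie1-WT (log2 difference 1.24, limma adjusted p = 0.00109). Of the genes of other lung cells, type 2 pneumocyte markers (10 of 12 measured) summed to 542 to 968 CPM in Tie1-CR, against 318 to 734 CPM in Tie1-WT, and 2 of them rose, though 3 of the 10 reached 10 CPM in Tie1-CR libraries only. Airway markers (5 of 12 measured) summed to 29.8 to 61.0 CPM in Tie1-CR, against 12.8 to 31.0 CPM in Tie1-WT. All 5 measured airway markers reached the 10 CPM of the table in Tie1-CR libraries only, so their presence depends on the genotype where they were higher, and nothing is drawn from their differences. Type 1 pneumocyte markers, relevant to Anxa2 since epithelium expresses it, summed to 5844 to 6544 CPM in Tie1-CR, against 5480 to 6471 CPM in Tie1-WT. Of the 11 measured 0 passed the threshold, and endothelium also expresses several of them. Their differences were above 0 for 2 and below 0 for 9 (median -0.19 log2). The highest was Cav1, at 2904 ± 150 CPM in Tie1-CR and 2854 ± 151 CPM in Tie1-WT, so the sum leans on it. Akap5 and Krt7 reached 10 CPM in Tie1-WT libraries only. Of 14 macrophage and monocyte markers 2 were measured, Lyz2, which type 2 pneumocytes also express, at 76.2 ± 21.9 CPM in Tie1-CR and 37.8 ± 21.8 CPM in Tie1-WT, and Cd68, at 5.30 ± 1.05 CPM in Tie1-CR and 10.7 ± 1.30 CPM in Tie1-WT, which reached 10 CPM in Tie1-WT libraries only and is given as a description. Fibroblast markers (5 of 11 measured, 0 past the threshold) summed to 35.03 to 96.7 CPM in Tie1-CR, against 41.4 to 117 CPM in Tie1-WT, and smooth muscle and pericyte markers (3 of 12 measured, 0 past the threshold) to 23.7 to 70.6 CPM in Tie1-CR, against 30.4 to 55.7 CPM in Tie1-WT. Of the 8 neutrophil, 14 lymphocyte, 7 mesothelial and 7 erythroid markers 0 were among the genes tested. With other cell types as a covariate, the log2 difference was 0.14 for Anxa2 (limma adjusted p = 0.262) and 0.29 for Vwf (limma adjusted p = 0.273). This covariate averages the measured markers of the non-endothelial cell types. Among them are the airway markers and others that reached 10 CPM in libraries of a single genotype only, so nothing is drawn from that adjustment. The part of the pan-endothelial difference in the Anxa2 and Vwf values was not tested.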

How the data were processed

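RNA from lung endothelial cells of 9 mouse libraries (5 Tie1-CR, 4 Tie1-WT, grouped by their titles) had been sequenced, after PicoPure extraction and SMARTer Ultra Low library construction with cDNA amplification, per the labels' protocols. The authors deposited 1 table of normalized values for 9277 genes, named as TPM, but whose values behave as CPM, with no correction for length. In it every value is a whole multiple of 1 step per library, within 0.01 reads, and the steps give 38208696 to 54408116 counted reads. STAR 2.7 and the builds mm10 and GRCm38.p6 come from the submitters' processing notes. Gene models, counter and use of strand: not given in the sources used here. All listed genes reach 10.0 CPM or more in 1 library or more, and genes below that level were not analysed here.

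Differences were tested with limma 3.58.1 in R 4.3.3 (trended empirical Bayes, two-sided) on log2(CPM + 1) without covariates, after requiring 1 CPM or more in 4 or more libraries, which removed no gene. P-values were adjusted by Benjamini-Hochberg over all 9277 genes with a threshold of 0.05. The pseudocount understates the change of low genes, among the members mainly that of Procr. For marker sums and ratios, an exact permutation test over the 9 libraries (two-sided) was used, and the fit was tested on simulated data. The libraries of each genotype differed beyond counting error. All 7 measured genes are reported, with the 2 most abundant and any called gene of each list and the 2 genes most alike each member. Coordinates are GRCm38 with GENCODE annotation. Results on some genes of the lists, and 1 ratio, are not reported here. The members and the lists were chosen with earlier results of these data known. Alternatives changed the pseudocount (0.5 or 5), the filter (none, or 20 CPM), the scaling, the test, the variance model, covariates, the replicate block and the libraries used.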

Additional observations from a re-analysis of the deposited data

How the results depend on the processing

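In all 21 alternatives (20 planned, and the platelet covariate added after seeing the data), 0 of the 7 anticoagulant and fibrinolytic genes passed the threshold, and 144 of 146 recomputed differences kept their direction. The other 2 were those of Entpd1, at log2 differences of -0.0247 without Tie1-CR replicate 2 and -0.0312 without Tie1-WT replicate 4 (up to 0.0846 without Tie1-WT replicate 3). Procr could not be tested with the filter at 20 CPM. The smallest adjusted p was 0.053, for Vwf without Tie1-CR replicate 1. The 2 planned tests on counts were not run, since the table is deposited in a normalized unit. The reads that its steps give were used for depth, for the reads of single genes and for the comparison with counting error.

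The number of genes called among all 9277 was 376. It was 661 with library weights, 156 with other cell types as a covariate, 183 with the replicate number as a block and 0 by the exact Wilcoxon test (1498 at an unadjusted p below 0.05), whose smallest possible p adjusted to 0.151, so its 0 says nothing about the 7 genes. Leaving out 1 library gave 60 (without Tie1-WT replicate 1) to 355. The labels do not say whether libraries of the same number were paired. Such libraries had correlations of deviations of -0.14 to 0.19, which cannot settle it. Of the called genes 119 were higher and 257 lower, against 182 and 190 with TMM scaling and 183 and 190 with quantile normalization. Erg fell under all alternatives except the exact Wilcoxon test (adjusted p = 0.151).

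Leaving out 1 library gave log2 differences of 0.23 to 0.29 for Anxa2 over S100a10, 0.53 to 0.75 for Vwf over Selp and 0.10 to 0.32 for Thbd over F2r. In the first 2 of these, the adjusted p over all 4 ratios was 0.0571 to 0.0762 in 7 of these 9 cases, where the smallest p that the splits allow is 0.0286 or 0.0179, and below 0.05 without Tie1-CR replicate 3 or Tie1-WT replicate 1. With 5 Tie1-CR and 4 Tie1-WT libraries, differences well inside the intervals could not be told from 0.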
